A study of Mus musculus with 2 samples.

Results

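Tubulin isotypes are the separate genes that encode the alpha and beta subunits of microtubules. The 10 isotypes described here were chosen by gene symbol and are 3 alpha-tubulin genes, Tuba1a, Tuba1b and Tuba4a, and 7 beta-tubulin genes, Tubb2a, Tubb2b, Tubb3, Tubb4a, Tubb4b, Tubb5 and Tubb6. All 10 were found among 55536 annotated mouse genes. Their transcripts were measured by total RNA sequencing of hippocampus from male B6CASTF1/J mice aged 36 days. These mice are the F1 hybrid of C57BL/6J and CAST/EiJ parents, and the levels do not separate the parental alleles. Counts and sequences refer to the mm10 reference, and how well reads of each allele matched it was not tested. The series holds 2 libraries of 1 group, biological replicates 1 and 2, each made from 300 ng of RNA with ERCC spike-in transcripts added. The tissue is labelled as a layer of hippocampus without saying which part was dissected, and the samples share a donor identifier but are separate biosamples in the labels. From the separate biosamples and replicate numbers, they are treated here as 2 animals. With 1 group and no treatment, the questions the data answer are how abundant each isotype was, how far the animals differed, and how firmly reads could be divided among nearly identical genes.

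An alpha and a beta subunit join into a dimer, and dimers assemble head to tail into the protofilaments of the microtubule. Isotypes differ most in their carboxy-terminal tails, which project from the microtubule surface and are the sites of glutamylation and, in alpha-tubulin, of removal and return of the final tyrosine. In brain, Tuba1a is a main alpha isotype of postmitotic neurons, Tubb3 is the classical neuronal beta isotype, Tubb4a is abundant in brain and in myelinating oligodendrocytes, and Tubb6 is known mainly from tissues outside the nervous system.

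The coding ends of the isotypes are printed to show how far the genes differ in sequence. They are the last 60 coding bases before the stop codon, which encode the tail, of 7 isotypes, from GENCODE M21 transcripts on GRCm38 (mm10). Capitals mark bases that differ from, or have no counterpart in, the gene named after each location, in an alignment of the whole coding sequences. Bases of the named gene that the printed gene lacks are neither marked nor counted. Tuba4a, for example, has 1344 coding bases against 1353 in Tuba1a. Tubb2a and Tubb2b differed at 3 of the 60 bases, none of which changes the encoded amino acid. By contrast, 18 bases of Tuba4a differed from Tuba1a. Among beta isotypes compared with Tubb2a, 10 bases differed in Tubb4a, 12 in Tubb5, 15 in Tubb4b and 31 in Tubb3, whose tail has the most changes in this set.
Tuba4a, chr1:75215625-75215684, minus strand, against Tuba1a: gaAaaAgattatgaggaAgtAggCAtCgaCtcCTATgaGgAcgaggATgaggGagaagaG
Tubb2a, chr13:34074471-34074530, minus strand, against Tubb2b: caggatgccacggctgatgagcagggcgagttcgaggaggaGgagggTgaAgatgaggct
Tubb2b, chr13:34127474-34127533, minus strand, against Tubb2a: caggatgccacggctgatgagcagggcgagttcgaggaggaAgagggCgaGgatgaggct
Tubb4a, chr17:57080693-57080752, minus strand, against Tubb2a: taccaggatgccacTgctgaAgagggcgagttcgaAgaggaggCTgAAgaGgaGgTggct
Tubb5, chr17:35834985-35835044, minus strand, against Tubb2a: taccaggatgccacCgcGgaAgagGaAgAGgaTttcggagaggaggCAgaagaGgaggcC
Tubb4b, chr2:25222311-25222370, minus strand, against Tubb2a: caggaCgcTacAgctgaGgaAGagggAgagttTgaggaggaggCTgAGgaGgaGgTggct
Tubb3, chr8:123421620-123421679, plus strand, against Tubb2a: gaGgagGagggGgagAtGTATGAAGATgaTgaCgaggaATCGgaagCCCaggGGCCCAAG

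Levels are given in TPM, a relative abundance corrected for transcript length. They come from the deposited gene table, called the first table, unless a second table is named. Replicate 1 held 28786216 expected counts and replicate 2 held 29755033, and the 10 isotypes together took 0.245 ± 0.00218% (SD, n = 2) of the counts assigned to genes. A value was available for all 10 isotypes, 9 reached 1 TPM in both libraries, and Tubb6 did so in replicate 2 only. Marker genes of the cell types of hippocampus were present: of 44 markers of 12 cell types, 40 reached 1 TPM in both libraries and none was at 0. Without a fold minimum, 24 of the 44 (54.5%) passed an adjusted p of 0.05 between the libraries by the exact binomial test described with the comparison of the animals, 13 higher in replicate 2 and 11 higher in replicate 1. Markers of CA1 and of dentate granule cells summed to 200.56 and 170.71 TPM and to 94.8 and 114.76 TPM in replicates 1 and 2, and those of choroid plexus are given beside Tubb6.

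Tuba1a was the leading alpha isotype, at 355 TPM in replicate 1 and 343 TPM in replicate 2 (mean 349 ± 8.07, SD, n = 2). Tuba4a, an alpha isotype known to lack the encoded final tyrosine, followed at 210.05 and 205 TPM (207 ± 3.87). Tuba1b, the broadly expressed near-copy of Tuba1a, lay at 192 and 185 TPM (189 ± 4.74). The ranges of these 3 genes did not overlap. Tuba1a stood on chromosome 15 at 98949837 to 98953703 and Tuba1b at 98931425 to 98934565 on the same strand, while Tuba4a was on chromosome 1 at 75214228 to 75219865 (GRCm38). In shares of the alpha pool, Tuba1a made up 46.8 ± 0.0338%, Tuba4a 27.8 ± 0.103% and Tuba1b 25.3 ± 0.0692%, and these shares differed between the animals by far less than they differed between the genes.

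Among beta isotypes, Tubb2a stood first of all 10 genes, at 429 TPM in replicate 1 and 439.9 TPM in replicate 2 (mean 435 ± 7.40, SD, n = 2), the 73rd highest of 22028 protein-coding genes. Its neighbour Tubb2b, on the same strand of chromosome 13 (34074274 to 34078007 for Tubb2a, 34126748 to 34130466 for Tubb2b), had 106 and 104 TPM, and Tubb2a exceeded it 4.13 ± 0.125 times. Tubb4a was the second beta isotype, with 248 TPM in replicate 1 and 219 TPM in replicate 2 (233 ± 21.02), the widest gap between the animals among the 9 well-detected genes. Tubb5, a broadly expressed isotype, had 145 and 142 TPM (144 ± 2.17). Tubb4b, a beta isotype of many cells and of ciliary axonemes, had 125 and 122 TPM (124 ± 1.598). Tubb3 had 122 and 115 TPM (118 ± 5.28), so 4 of the other 6 beta isotypes had higher levels than the neuronal marker isotype. Tubb6 was lowest, with 0.26 and 1.03 TPM from 9 and 37 counts.

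In the order of means, Tubb2a came first, followed by Tuba1a, Tubb4a, Tuba4a, Tuba1b, Tubb5, Tubb4b, Tubb3, Tubb2b and Tubb6. None of the 9 neighbouring pairs had overlapping ranges over the libraries, but with 2 libraries this is a weak criterion. The closest pair was Tubb4b and Tubb3, where the lower Tubb4b value was 122.4 TPM and the higher Tubb3 value 122.06 TPM. Neighbours among the first 9 differed by 1.04 times (Tubb4b over Tubb3) to 1.495 times (Tuba1a over Tubb4a), while Tubb2b exceeded Tubb6 by 163 times. The beta pool was made up of Tubb2a at 37.5 ± 1.40%, Tubb4a at 20.1 ± 1.40%, Tubb5 at 12.4 ± 0.0646%, Tubb4b at 10.7 ± 0.0783%, Tubb3 at 10.2 ± 0.249%, Tubb2b at 9.07 ± 0.0633% and Tubb6 at 0.0561 ± 0.0481%.

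**Figure D1:**
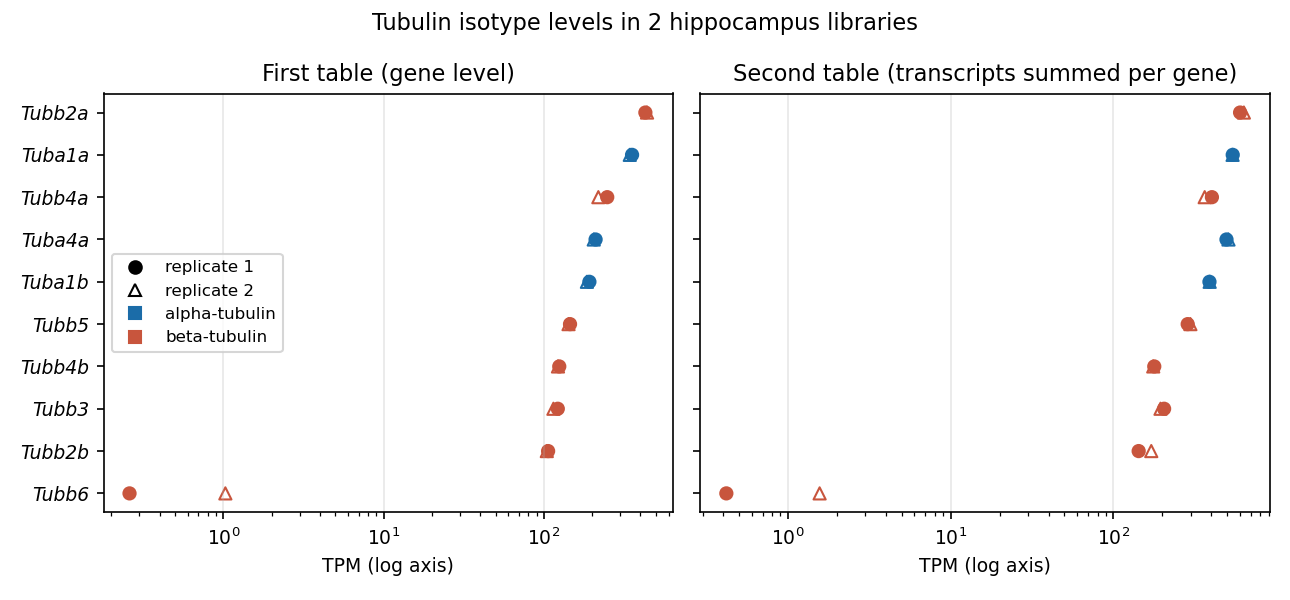
Level of each tubulin isotype in TPM (log axis) in the first table (left) and, as transcripts summed per gene, in the second table (right); filled circles are replicate 1 and open triangles replicate 2, blue alpha-tubulin and red beta-tubulin. In each of the tables, 9 isotypes lie above 100 TPM with the replicates close together, and Tubb6 lies near 1 TPM with its replicates apart.

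The second table is another deposited quantification of the same libraries, given per transcript and here summed per gene. TPM in it is not on the scale of the first, because protein-coding genes held 44.0 ± 0.706% of all TPM in the first table and 77.8 ± 0.140% in the second. With each table rescaled over its protein-coding genes, the 10 isotypes together had 4326.87 ± 21.9 TPM in the first table and 4188.68 ± 39.9 TPM in the second (SD, n = 2). Single isotypes moved more than this sum. On that common scale Tuba4a was 1.37 times higher in the second table, Tuba1b 1.17 times and Tubb5 1.15 times. Counts of Tubb5 were nearly equal in the tables, 7286 and 7615 in the first and 7350 and 7671 in the second. Those of Tuba4a were 7767 and 8111 against 8337 and 8703, and those of Tuba1b 6433 and 6551 against 8199 and 8368. Tubb2a stood at 0.803, Tubb4b at 0.811, Tubb2b at 0.844 and Tuba1a at 0.876 of their levels in the first table. Tubb2a and Tuba1a kept the first and second rank, whereas Tuba4a and Tuba1b moved past Tubb4a, and Tubb3 (205 and 195 TPM in the second table) moved past Tubb4b (178 and 176 TPM).

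Alpha and beta subunits have to pair in the dimer. The 2 pools of the isotypes described here differed in size by an amount that depended on the table. In the first table alpha isotypes summed to 756.93 and 733.33 TPM and beta isotypes to 1176.41 and 1143.14 TPM, a beta to alpha ratio of 1.56 ± 0.00329 (SD, n = 2). In the second table the ratio was 1.28 ± 0.0015. With the TPM of processed pseudogenes that share stretches with these isotypes added to both pools, an alternative chosen after seeing the data, the ratio was 1.26 ± 0.00635 in the first table and 1.202 ± 0.00922 in the second. The pools were larger on the beta side in both libraries under each of these counts. Other tubulin genes were not added to the pools. On the alpha side these include Tuba1c (24.7 and 22.5 TPM in the first table) and Tuba8 (1.93 and 1.95 TPM). On the beta side Tubb1 had 0 and 0.07 TPM. Leaving out Tuba1c raises the beta to alpha ratio, although pseudogenes that share stretches with it were counted. The ratio with Tuba1c added was not computed.

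How much of each isotype could be shared with another gene was measured on the reference transcripts by sliding a window of 100 bases along each and asking whether the same 100 bases occur on the same strand in any other gene. The window was set from the median gap between length and effective length in the first table. The second table has a wider gap (Tubb2a-201, 1610 bases with an effective length of 1270.9 in replicate 1). Longer windows were not tried. In Tuba1b 69.5% of windows were shared and in Tuba1a 65.1%, rising to 91.1% and 80.4% of windows that lie wholly in coding sequence. These shares include matches to Gm49450, a gene model at 0 TPM in both libraries. Its exons overlap those of Tuba1a by 473 bases and those of Tuba1b by 426 bases on the same strand. It matched 32.2% of windows of Tuba1b and 31.2% of Tuba1a, some of which also match other genes. Shares without it were not computed. The beta genes Tubb2a, Tubb4b and Tubb2b shared 36.9%, 29.2% and 27.7% of windows. In Tuba4a, Tubb3, Tubb4a, Tubb5 and Tubb6 no window was shared on the same strand. The coding sequences of Tuba1a and Tuba1b were 98.3% identical, with 23 differences, and those of Tubb2a and Tubb2b 96.5%, with 47 differences and an identical run of 551 bases. All other pairs of beta isotypes were between 80.2% (Tubb5 and Tubb6) and 86.0% (Tubb3 and Tubb6) identical. Tuba1a, Tuba1b and Tuba1c, an alpha gene outside the 10, had 387 windows in common.

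**Figure D2:**
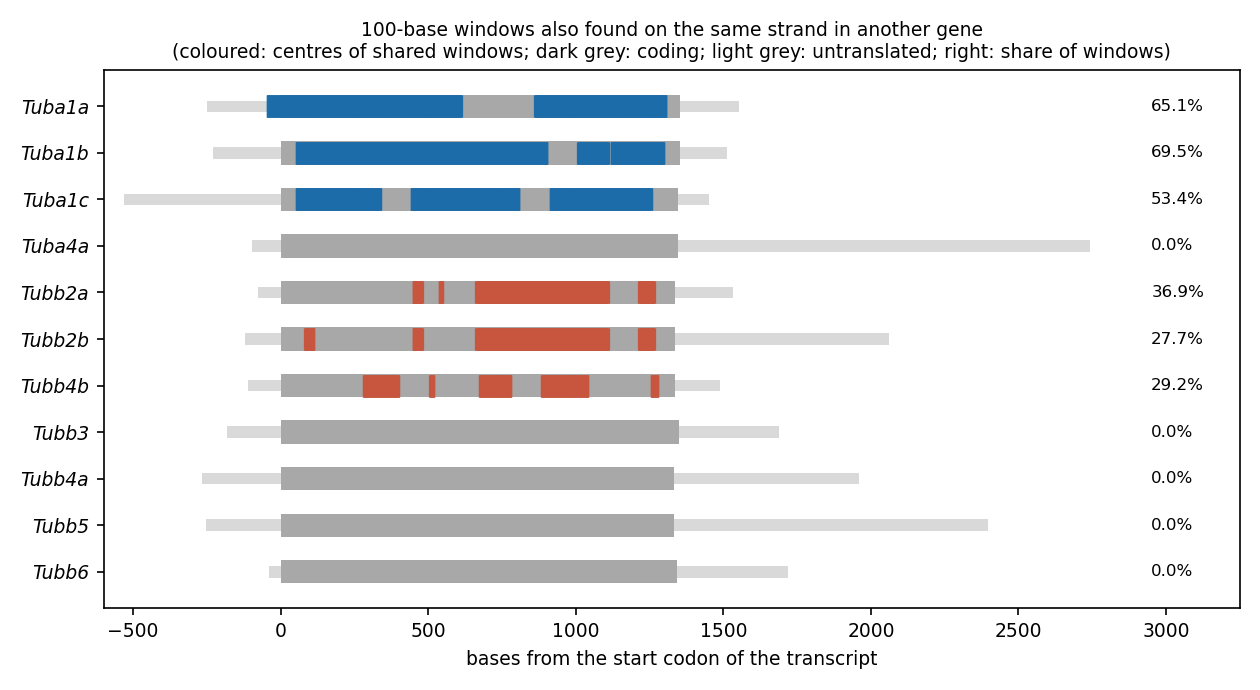
Reference transcripts of the 10 isotypes and Tuba1c along the x axis in bases from the start codon, coding sequence in dark grey and untranslated parts in light grey; colour marks the centres of 100-base windows found on the same strand in another gene, with their share at the right. Tuba1a and Tuba1b are covered over most of the coding sequence (65.1% and 69.5% of all windows), and Tuba4a, Tubb3, Tubb4a, Tubb5 and Tubb6 carry no colour.

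The deposited posterior standard deviation of each count, which is large where reads could belong to several genes, followed this order only in part. It was 0 in both libraries for Tuba4a, Tubb3, Tubb5 and Tubb6, and 0 and 0.00618% of the count for Tubb4a. It was 1.18% and 1.17% for Tuba1b, 0.858% and 0.865% for Tubb2b, 0.467% and 0.483% for Tuba1a, 0.28% and 0.278% for Tubb2a and 0.25% and 0.268% for Tubb4b. At a minimum of 1% of the count, 1 of 10 isotypes, Tuba1b, was marked as sharing reads, beside 10.5% of all genes tested. Windows of Tuba4a were taken from Tuba4a-202, its transcript with a complete coding sequence, although Tuba4a-201 was the more abundant. On the opposite strand, 1280 of 2741 windows of Tuba4a-202 (46.7%) and 536 of 1984 windows of Tuba4a-201 (27.0%) matched Stk16, a gene for a membrane-associated kinase at 37.4 and 35.2 TPM whose exons overlap Tuba4a by 1379 bases. Tuba1a and Tuba1b had 32.9% and 33.9% of windows on the opposite strand of another gene, nearly all of them in a noncoding RNA at 0.06 and 0.09 TPM. Expected counts of Tuba4a were whole numbers, 7767 and 8111, with the posterior standard deviation of 0 given above. The first table thus divided no Tuba4a read with Stk16 or another gene. Whether counting used strand is not stated in the labels or files, and whether any Tuba4a read came from Stk16 was not tested.

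Processed pseudogenes held an appreciable share of reads of the alpha-1 family (Tuba1a, Tuba1b and Tuba1c with 8 processed pseudogenes that share windows with them). In the first table the 3 genes had 19819 and 20079 counts and the pseudogenes 4913 and 4941 counts, which is 19.9% and 19.7% of the family. In the second table the genes had 21030.3 and 21293 counts and the pseudogenes 1837 and 1710 counts, or 8.03% and 7.43% of the family. The pseudogenes named next were chosen after their values were seen. Gm14150, on chromosome 2 at 151458956 to 151460309, had 2762 and 2726 counts (107.02 and 100.73 TPM) in the first table and 51.5 and 20.3 counts in the second, and it shares 523 windows with Tuba1b and 174 with Tuba1a. Tuba1b had 6433 and 6551 counts in the first table and 8199 and 8368 in the second. Gm3226, on chromosome 13 at 112593743 to 112595084, had 1606 and 1646 counts in the first table and 1538 and 1464 in the second, so the tables placed similar numbers of reads there. Gm6682 had 478 and 518 counts in the first table and 177 and 157 in the second.

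The ratio of Tuba1a to Tuba1b moved from 1.85 ± 0.00371 (SD, n = 2) in the first table to 1.39 ± 0.00497 in the second. The ratio of Tubb2a to Tubb2b, 4.13 ± 0.125 and 3.95 ± 0.348, differed by less than the SD of the second table. For Tubb4b the pseudogenes held 6.32 ± 0.773% of the family in the first table and 9.47 ± 1.22% in the second, mostly through Tubb4b-ps1 (8.55 and 9.38 TPM in the first table, 19.8 and 23.3 TPM in the second). For Tubb2a and Tubb2b the share was 0.109 ± 0.0109% and 1.01 ± 0.137%, through Tubb2a-ps2 (0.70 and 0.83 TPM in the first table, 11.1 and 9.61 TPM in the second). Tubb4b-ps2 was at 0 and 0.40 TPM in the first table.

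The 10 isotypes had 25 annotated transcripts, and Tuba1a, Tubb2a and Tubb4a had 1 each. In the first table the transcript numbered 201 held at least 90% of the gene's TPM in 9 isotypes, the exception being Tuba4a, and in the second table in 7 by the mean of the libraries, the exceptions being Tuba4a, Tubb5 and Tubb2b. Tubb6-201 held 100% and 89.3% of Tubb6 there. Tuba4a-201 held 80.5% and 83.7% of Tuba4a in the first table and 41.0% and 41.4% in the second. There, the 782-base Tuba4a-203 held 30.4% in each library, against 0.430% and 0.320% in the first table, and the 1205-base Tuba4a-206 held 26.4%, against 6.86% and 6.70%. Both are annotated as incomplete, as is Tuba4a-201, and the single transcript of Tuba4a with a complete coding sequence, Tuba4a-202, held 3.23% and 2.63% in the first table.

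Tubb5-204, a 979-base transcript that retains an intron, held 4.74% and 2.91% of Tubb5 in the first table and 35.0% and 37.0% in the second. Tubb2b-202, a 430-base transcript annotated without a coding sequence, held 5.30% and 1.95% of Tubb2b in the first table and 12.1% and 25.03% in the second. The second table divided counts by shorter effective lengths than the first: 443 and 439.9 bases for Tuba4a-203, 639.9 and 637 bases for Tubb5-204, and 122 and 121 bases for Tubb2b-202. The counts behind these levels were 1008 and 1051 for Tuba4a-203, 969 and 1079 for Tubb5-204, and 31.9 and 79.9 for Tubb2b-202. The level of Tubb2b in the second table, 143 and 171 TPM, therefore carried a difference between replicates that Tubb2b-201 alone (126 and 128 TPM) did not.

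**Figure D3:**
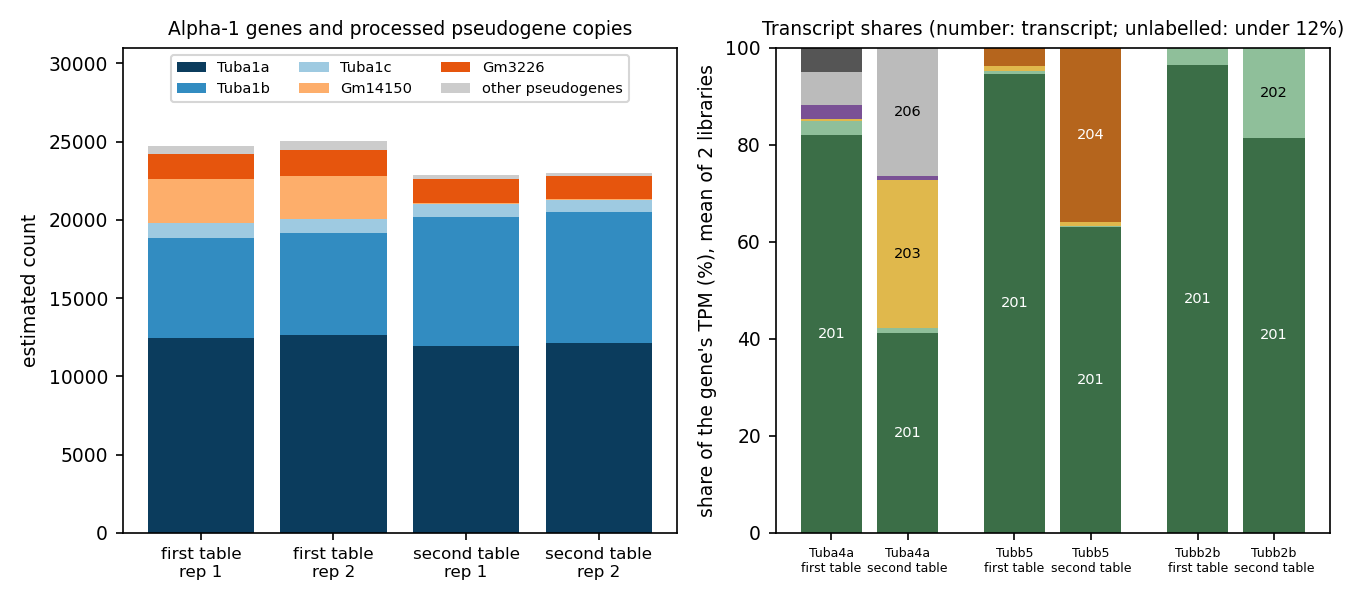
Left, estimated counts of the alpha-1 genes and their processed pseudogenes in each table and replicate (stacked bars from 0); right, shares of transcripts in the TPM of Tuba4a, Tubb5 and Tubb2b in percent, mean of 2 libraries, for the first and second table. Gm14150, 2762 and 2726 counts in the first table, is too thin to see in the second, and Tuba4a-203, Tuba4a-206 and Tubb5-204 take up more of their genes in the second.

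The animals were compared on rounded expected counts scaled by TMM, with an exact two-sided binomial test adjusted by the Benjamini-Hochberg method over 18270 genes. This test sets one library against another, measures counting error only, and gives no check against other animals. Genes were called apart at an adjusted p under 0.05 and at least a 1.5-fold difference. Of all genes 1.89% were apart, and 1.23% were apart and higher in replicate 2. Of the 10 isotypes 1 was apart, Tubb6, higher in replicate 2. The other 9 were within 1.2-fold. The median log2 ratio of replicate 2 over replicate 1 was 0.01 over the isotypes and 0.00 over all genes tested, and the median size of the log2 ratio was 0.03 for the isotypes, 0.11 for all genes and 0.06 for the 5307 genes with a mean count of at least 1000.

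Without the fold minimum, 3 of 10 isotypes passed an adjusted p of 0.05, beside 11.4% of all genes and 24.1% of genes with a mean count of at least 1000. Tubb4a was 1.11-fold higher in replicate 1 (95% interval 1.08 to 1.14), with 10870 counts against 10036 (log2 ratio -0.16, adjusted p = 6.69e-13, exact binomial test with Benjamini-Hochberg adjustment). Tubb2a was 1.04-fold higher in replicate 2 (95% interval 1.02 to 1.07), with 14335 counts against 13342 (log2 ratio 0.06, adjusted p = 0.00447, same exact test). The third was Tubb6. For the remaining 7 isotypes the log2 ratios ran from -0.06 (Tubb3, adjusted p = 0.206, exact test) to 0.04 (Tubb2b, adjusted p = 0.461, exact test), and the widest of their intervals, unadjusted for the number of genes, was that of Tubb4b, 0.959 to 1.05 for replicate 2 over replicate 1.

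Oligodendrocyte markers are given beside Tubb4a because these cells express it. All 5 reached 1 TPM in both libraries, and their summed level was 1519.23 TPM in replicate 1 and 1442.65 TPM in replicate 2. Of the 5, 3 passed the adjusted p with higher values in replicate 1, beside 11 of all 44 markers in that direction. Among these 3 were Mobp (log2 ratio -0.09) and Opalin (-0.68), genes of myelin and myelinating cells, while Mbp, the most abundant of the 5, had 0.00. All 3 CA1 markers and 2 of 4 interneuron markers also passed with higher values in replicate 1, at median log2 ratios of -0.23 and -0.15. The part of these cell types in the Tubb4a difference was not tested. In bulk tissue, fewer cells of a type and less RNA per cell cannot be told apart.

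Tubb6 rested on 9 counts in replicate 1 and 37 in replicate 2. It was 3.84-fold higher in replicate 2, with a 95% interval of 1.89 to 9.42 (log2 ratio 1.94, adjusted p = 0.000905, exact binomial test with Benjamini-Hochberg adjustment). Markers of choroid plexus, the epithelium that secretes cerebrospinal fluid, were also higher in replicate 2. All 4 were apart, beside 1.23% of all genes apart in that direction. They summed to 4.10 TPM in replicate 1 and 184 TPM in replicate 2, mostly from Ttr, the transthyretin gene (3.62 and 179 TPM). All 4 dentate granule markers passed the adjusted p with higher values in replicate 2 too. Of these, 1 was apart, and their median log2 ratio was 0.41. The summed level of 3 endothelial markers was 64.2 and 62.5 TPM, with 1 of them passing the adjusted p in each direction, and that of 3 ependymal markers 8.51 and 8.91 TPM. The part of choroid plexus, or of any other of these cell types, in the Tubb6 difference was not tested.

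**Figure D4:**
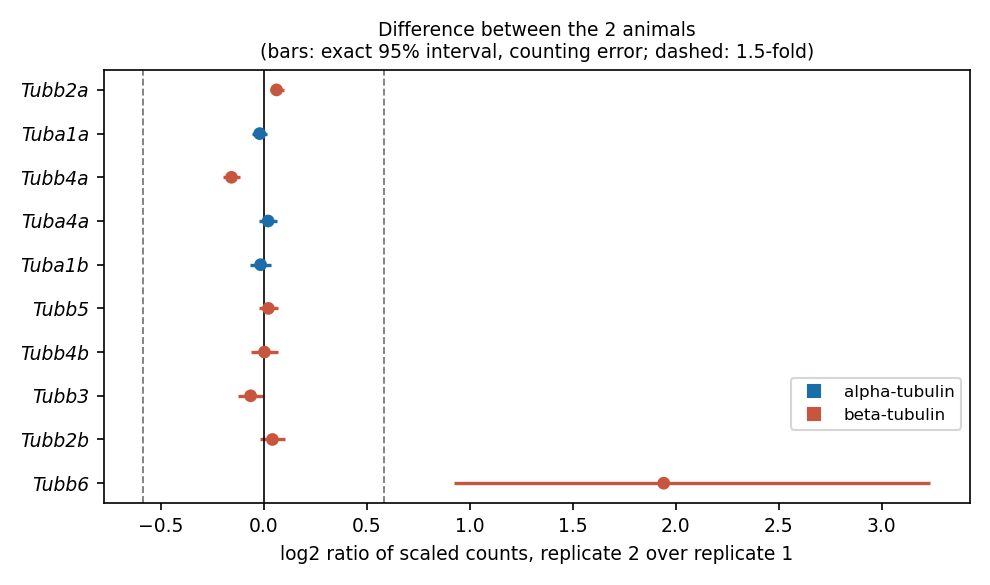
log2 ratio of scaled counts, replicate 2 over replicate 1, for each isotype, in the order of their levels; points are the ratio, bars the exact 95% interval from counting error, dashed lines 1.5-fold. Tubb6 alone lies past 1.5-fold, at 1.94 with a wide interval, and Tubb4a lies lowest at -0.16.

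Beyond the 10 isotypes, the genome holds further tubulins, listed here as 10 relatives. Of these 6 reached 1 TPM in both libraries and none was apart. Tuba1c, the third alpha-1 gene, had 24.7 and 22.5 TPM, with a posterior standard deviation of 5.69% and 5.96% of its count that marked it as sharing reads. The gamma-tubulins that seed microtubules were at 18.3 and 15.7 TPM (Tubg1) and 15.4 and 16.1 TPM (Tubg2). The centriolar delta- and epsilon-tubulins were low, with Tubd1 at 3.43 and 3.47 TPM and Tube1 at 1.24 and 1.10 TPM. Tuba8 had 1.93 and 1.95 TPM. Tubb1, the beta isotype of platelets, had 0 and 2 counts, and the alpha genes Tuba3a, Tuba3b and Tubal3 had no count in either library of the first table, which allows up to 3 counts each. In the second table Tubal3 had 6.05 and 6.42 counts. All alpha and beta relatives together came to 26.7 and 24.5 TPM beside 1933.34 and 1876.47 TPM for the 10 isotypes.

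Genes listed here under tubulin folding were all expressed. Each of the 8 genes on the cofactor list, not all of which fold tubulin themselves, reached 1 TPM in both libraries. The highest were Tbca (58.1 and 54.8 TPM), which binds beta-tubulin, Tbcb (51.3 and 46.9 TPM), which binds alpha-tubulin, and Tbce (37.7 and 31.4 TPM). None was apart and none passed the adjusted p. Each of the 8 subunits of the CCT chaperonin, which folds newly made tubulin and actin, lay between 46.3 and 96.9 TPM on average, with Cct5 highest (93.4 and 100.39 TPM), then Cct7 (89.1 and 88.95 TPM) and Tcp1 (81.7 and 87.2 TPM). None was apart, and 7 of 8 had a log2 ratio above 0, beside 52.6% of genes with a mean count of at least 1000. Without a fold minimum 2 of 8 passed the adjusted p, a share near the 24.1% of those genes: Cct5 (log2 ratio 0.16, adjusted p = 9.7e-05, exact binomial test) and Cct4 (0.16, adjusted p = 0.0156, same exact test).

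Enzymes that add glutamate or glycine to tubulin tails spanned a wide range. Of 15 genes of this list 11 reached 1 TPM in both libraries, with Ttll7, a beta-tubulin polyglutamylase, highest at 58.7 and 53.1 TPM, followed by Nicn1 (42.0 and 38.2 TPM) and Tpgs1 (26.2 and 25.5 TPM), which are subunits of the Ttll1 polyglutamylase complex. Ttll6, Ttll9 and Ttll10 stayed under 1 TPM in both. Nicn1 passed the adjusted p without a fold minimum, higher in replicate 1 (log2 ratio -0.17, adjusted p = 0.0219, exact binomial test), and the list held no gene apart. Of 6 enzymes that shorten glutamate chains, Agtpbp1, whose loss causes Purkinje cell degeneration in the pcd mouse, was far above the others, at 156 and 137 TPM (mean 146 ± 13.1, SD, n = 2). Agbl3 (6.62 and 5.43 TPM) and Agbl4 (5.77 and 5.14 TPM) followed, and Agbl1 and Agbl2 were under 1 TPM in both. At 8110 and 8203 counts, Agtpbp1 had a log2 ratio of -0.02 (adjusted p = 0.619, exact test).

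In the tyrosination cycle, Vash1, a carboxypeptidase that removes the final tyrosine, had 17.7 and 18.9 TPM, Ttl, the ligase that restores it, 13.1 and 12.7 TPM, and Svbp, the partner of the vasohibins, 8.03 and 6.44 TPM. Vash2, the other vasohibin, had 0.80 and 0.77 TPM. Of the acetylation genes, the deacetylase Sirt2, known for high expression in oligodendrocytes, had 64.2 and 64.1 TPM, the acetyltransferase Atat1 25.8 and 24.0 TPM and the deacetylase Hdac6 20.7 and 20.1 TPM. None of these 7 genes was apart or passed the adjusted p.

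Of 9 genes of the gamma-tubulin ring, which nucleates microtubules, 8 reached 1 TPM in both libraries, with Mzt1 (27.95 and 28.2 TPM), Mzt2 (28.0 and 24.4 TPM) and Tubgcp4 (18.1 and 15.95 TPM) highest in the first table. Cdk5rap2, a centrosomal activator of the ring, passed the adjusted p without a fold minimum at 4.32 and 5.80 TPM (log2 ratio 0.24, adjusted p = 0.0144, exact binomial test). It was marked as sharing reads, and in the second table it had 111 and 115 TPM, more than Mzt1 (74.4 and 74.5 TPM), from 1381 and 1532 counts against 691 and 840.4 in the first. Of 7 severing genes 5 reached 1 TPM in both, led by Katnal1 (23.6 and 26.3 TPM) and Spast, the gene mutated in a common hereditary spastic paraplegia (23.1 and 23.9 TPM), while Fign and Fignl1 were under 1 TPM in both. Across the 9 lists of 70 genes, 56 reached 1 TPM in both libraries, 63 could be tested, none was apart and 62 were under 1.5-fold, the exception being Fignl1 with 21 and 11 counts (log2 ratio -0.94, adjusted p = 0.297, exact test). Of the 63, 4 passed the adjusted p without a fold minimum, beside 11.4% of all genes tested. An unadjusted p under 0.05 was found for 11 of the 63, a share that was not computed over all genes. The median log2 ratio of the 63 was -0.02. In both tables every gene of these lists had a lower mean level than Tuba1a and Tubb2a. In the first table Agtpbp1 alone lay above Tubb2b, the lowest of the 9 well-detected isotypes, whereas in the second (Tubb2b at 157 TPM on average) Cct5 (185 TPM), Tcp1 (173 TPM), Cct2 (166 TPM) and Cct6a (157.01 TPM) did so too.

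**Figure D5:**
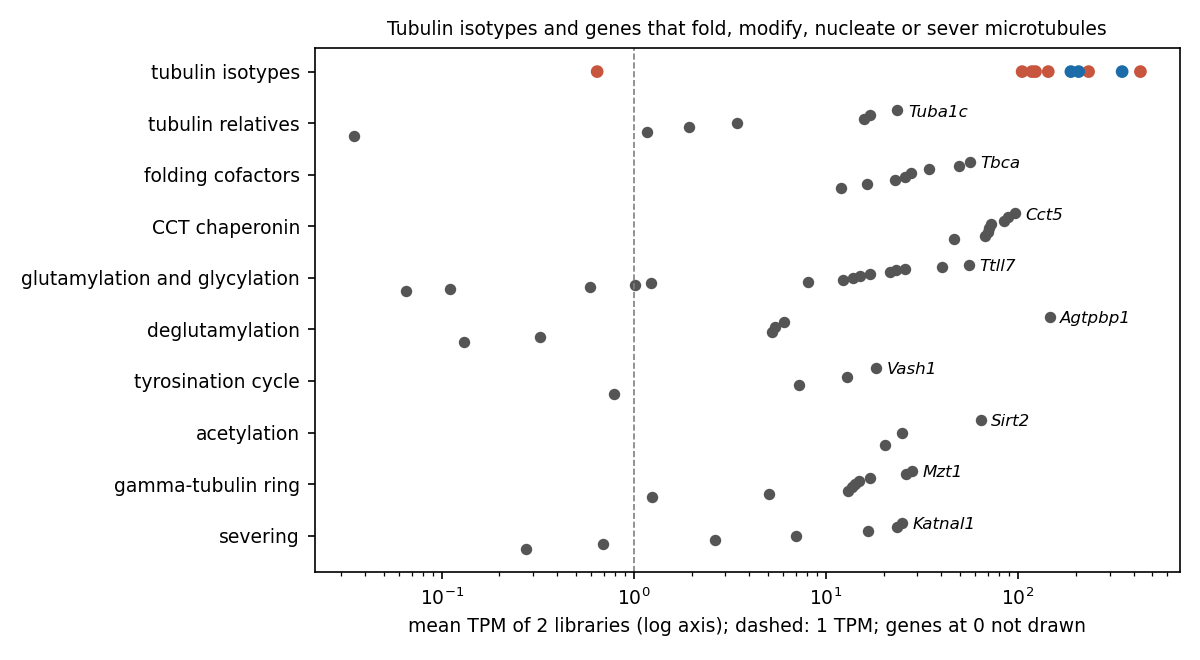
Mean TPM of 2 libraries in the first table (log axis) for the isotypes (top, blue alpha and red beta) and for the genes of each list, with the highest gene of each list named and a dashed line at 1 TPM; genes at 0 are not drawn. The 9 well-detected isotypes lie to the right of nearly all other genes, with Agtpbp1 at 146 TPM the exception.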

How the data were processed

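The authors deposited 3 tables per library. The gene table holds, per gene, an expected count, its posterior standard deviation and TPM, per the file headers; the first transcript table adds the percent of a gene's TPM held by each transcript, per the file headers. Their columns are those RSEM writes. The second transcript table gives an estimated count and TPM, in the columns kallisto writes. The deposited notes on the files name mm10 and GENCODE M21. The aligner, any program version and any use of strand were not given in the sources used here.

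ERCC entries (0.421% and 0.408% of counts in replicates 1 and 2) and phage or numeric entries (2.75e-05% and 1.68e-05%) were kept out of gene totals and tests. Expected counts were rounded. Libraries were scaled by TMM (edgeR 4.0.16, R 4.3.3) and compared gene by gene with an exact two-sided binomial test (SciPy 1.17.1), Benjamini-Hochberg adjusted over 18270 genes with a mean count of at least 10. Log2 ratios had 0.5 added. The common biological coefficient of variation was 0.0644. Intervals are exact 95% Clopper-Pearson intervals and cover counting error only, and without molecular identifiers reads need not be separate molecules. p-values compare these 2 libraries, whose separate origin rests on their replicate numbers and biosamples. Counts were also simulated with counting noise only, over 18270 genes. There, 84.54% of genes changed 2-fold, 92.23% of genes changed 4-fold and 0.0221% of unchanged genes were called. This simulation holds no variation between animals, so it gives no rate at which differences between animals would be found.

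Alternatives were DESeq2 1.42.0 size factors, total or ERCC scaling, other count minimums, 1 added, the second table and TPM over protein-coding genes. Coding sequences were aligned with Biopython 1.88. Named are all isotypes and relatives, Tuba or Tubb pseudogenes with a mean count of at least 10 (those with a lower mean were named after their values were seen), and of each list the 3 highest, those under 1 TPM and those apart; genes passing the adjusted p alone were named after it was known. The members and lists were chosen with earlier results of these data known. A comparison of protein sequences was not run. Some genes and sequences that this rule would name are not reported here.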

Additional observations from a re-analysis of the deposited data

How the results depend on the processing

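Of 69 isotype and alternative pairs of the difference between the animals, 4 changed direction, all within 0.03 of 0 on the log2 scale: Tubb4b was -0.0032 with total counts and -0.028 in the second table, and Tuba1a and Tuba1b were 0.019 and 0.024 with ERCC spike-in totals, which moved the median of all genes to 0.04. Tubb6 was apart in each of the 6 alternatives that tested it, with adjusted p-values (exact binomial test, Benjamini-Hochberg) from 0.000725 to 0.00707. With a mean count of at least 100 it was not tested, so 0 isotypes were apart. Of all genes, 113 of 12541 tested were then apart (0.901%), against 346 of 18270 (1.89%). The summed level of the 10 isotypes, 1904.9 TPM, was 3256.77 in the second table, 4326.87 over protein-coding genes and 4188.68 with both. The alpha pool, 745 TPM, was 1431.45, 1692.5 and 1841.05 under the same alternatives, and the beta pool, 1159.78 TPM, was 1825.32, 2634.37 and 2347.63. These scalings change the denominator of TPM. The beta to alpha ratio fell to 1.28 in the second table and to 1.26 with pseudogenes added, an alternative chosen after seeing the data, as was the second table over protein-coding genes. Leaving out a library ends every test, and levels are then those of the other library. No paired analysis was possible because the series has 1 group.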
